A study of Mus musculus with 8 samples.

Results

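The teneurins of the mouse are encoded by 4 genes, Tenm1 to Tenm4. They were found by matching each Ensembl gene ID to GENCODE M21 on GRCm38, and each symbol had 1 ID among the 21859 IDs of the count table. The family was selected on an earlier result of these data, the log2 fold change of Tenm4 between media, so that difference is given as a description, without a test. RNA was sequenced from PER-M60, a leukaemia line of the mouse, in 8 separate cultures. In 4 cultures the cells grew in control medium, and in 4 they grew in medium taken from osteoclasts, the cells that resorb bone. The labels give no genotype, time or further agent for either group. All cultures are of this single line, so the spread between them is that between cultures and not between animals. Total counts ranged from 15391754 to 21637966 per culture.

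Teneurins are large transmembrane proteins that span the membrane a single time and carry most of their mass outside the cell. They pair with each other and bind latrophilins, adhesion receptors of the G protein-coupled class, on neighbouring cells, and FLRT proteins can join that complex. They are best known from the nervous system, where they take part in the matching of axons and synapses, and Tenm4 takes part in the formation of myelin. Mouse Tenm4 also bears the name Doc4, because it was first described as a gene downstream of CHOP, the stress-response transcription factor encoded by Ddit3.

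Tenm4 (ENSMUSG00000048078) lies on the plus strand of chromosome 7, from 96171246 to 96911093 in GRCm38. Its annotated transcripts begin at 96171246, or between 96209663 and 96211671, or further inside the gene. RefSeq gives upstream sequence for starts of its own at 96171244, within a few bases of the first annotated start, and at 96211671. The 250 bases before each start are printed here because Tenm4 differed between media together with genes of the CHOP and amino acid response, as described further on. They read 5′ to 3′ on the plus strand of GRCm38.p6, and capitals mark the letters TGCAAT, the core of the CHOP and C/EBP composite element, a search chosen after the windows had been read.
Tenm4, chr7:96170994-96171243: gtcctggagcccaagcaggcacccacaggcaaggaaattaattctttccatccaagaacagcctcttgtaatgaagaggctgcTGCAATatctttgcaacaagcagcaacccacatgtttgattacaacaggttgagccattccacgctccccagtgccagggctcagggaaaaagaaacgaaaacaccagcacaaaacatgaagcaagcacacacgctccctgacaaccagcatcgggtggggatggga
Tenm4, chr7:96211421-96211670: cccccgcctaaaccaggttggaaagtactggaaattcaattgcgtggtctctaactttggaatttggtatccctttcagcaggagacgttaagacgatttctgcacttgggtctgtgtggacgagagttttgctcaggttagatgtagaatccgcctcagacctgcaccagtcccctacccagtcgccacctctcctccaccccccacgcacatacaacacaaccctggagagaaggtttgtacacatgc

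The first Tenm4 window held TGCAAT once, and the second held it on neither strand. Of the 32851 RefSeq windows of the same length, 7.32% held it on either strand. The letters TGATGNAAN, the composite element of C/EBP and ATF proteins, were found in neither Tenm4 window, against 3.44% of all windows. They were found in the windows of 3 of the 12 genes of the CHOP and amino acid response list that have a window, namely Atf3, Chac1 and Nupr1. TGCAAT was found in 2 of these 12, Trib3 and Nupr1, and TTGCGCAAN in 0. TTGCGCAAN, the C/EBP palindrome, was in 0.164% of all windows and in none of the 5 teneurin windows. Among the windows of Tenm1, Tenm2 and Tenm3, the one of Tenm1 held TGATGNAAN and TGCAAT once each, and the others held neither. The RefSeq starts of Tenm1 (43274784), Tenm2 (36944241) and Tenm3 (48674690) lie well inside the annotated spans of these minus-strand genes, not at their annotated starts. These matches describe letters in a window of 250 bases and nothing beyond it.

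The Tenm4 span also holds the annotated hairpins of miR-708 and miR-6394 on the same strand, with mature sequences that begin 78.2 kb and 134.5 kb from the annotated start. Their mature sequences are given because they lie within the gene. Their levels were not analysed here. Capitals mark the seed, bases 2 to 8, and sequences and build (GRCm38.p6) are those of RefSeq.
mmu-miR-708-5p: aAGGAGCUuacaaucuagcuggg
mmu-miR-708-3p: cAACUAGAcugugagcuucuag
mmu-miR-6394: uCCCUGAGuggggccaggucu

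Tenm4 was the family member with reads in quantity. It had 22295 counts over the 8 cultures, 99.8% of all teneurin counts. In raw counts the control cultures held 1776, 2457, 1764 and 2010 for replicates 1 to 4, and the osteoclast-conditioned cultures held 3824, 3133, 3914 and 3417. As normalised CPM (counts scaled to the library total after TMM adjustment) the control cultures stood at 105, 113, 114 and 113 and the osteoclast-conditioned cultures at 195, 188, 210.1 and 199. The groups lay well apart, and replicate 1 was the lowest of the control cultures. The means were 112 ± 4.26 and 198 ± 9.48 normalised CPM (SD, n = 4 each), a ratio of 1.77 and a log2 fold change of 0.83 (SE 0.035).

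The depth behind Tenm4 was ample in each culture. Control replicate 1 had a Tenm4 level of 107 CPM on its unadjusted total (95% Wilson interval 102 to 112), and osteoclast-conditioned replicate 2, the lowest of its group, had 186 (179 to 192). These intervals cover counting error only, since reads are not independent molecules. The coefficient of variation between cultures was 3.82% in control and 4.79% in osteoclast-conditioned medium, where counting alone would give 2.24% and 1.67%. In mean level, 85.3% of the tested genes stood below Tenm4.

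Tenm3 (ENSMUSG00000031561; chromosome 8, 48227682 to 48843951, minus strand) followed at a far lower level. Its raw counts were 5, 4, 7 and 2 in control replicates 1 to 4 and 3, 4, 1 and 3 in osteoclast-conditioned replicates 1 to 4. The groups overlapped, and all 8 cultures had at least 1 count. Tenm1 (ENSMUSG00000016150; chromosome X, 42527866 to 43429126, minus strand) had 0 counts in every control culture and 1, 0, 2 and 1 in the osteoclast-conditioned cultures. Tenm2 (ENSMUSG00000049336; chromosome 11, 36006656 to 37235964, minus strand) had 1 count in control replicate 2, 1 in osteoclast-conditioned replicate 2 and 0 elsewhere. The floor, set at 3 counts, was 0.138 to 0.194 normalised CPM depending on the culture. Tenm1 and Tenm2 lay below that floor in each culture, and Tenm3 lay near it. None of these genes passed the filter on low counts, and their differences between media were not tested.

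Compared as levels per kilobase of exon, the order was Tenm4, Tenm3, then Tenm1 and Tenm2. In control medium Tenm4 had 5.31 and Tenm3 0.0256 normalised CPM per kb of exon. In osteoclast-conditioned medium these levels were 9.41 and 0.0152. Tenm1 and Tenm2 stayed at or under 0.00305 in both media and do not differ from each other beyond their counts of 4 and 2. Together Tenm1 to Tenm3 made up 0.499% ± 0.256 of the family's level per kb of exon in the control cultures (SD, n = 4). In the osteoclast-conditioned cultures they made up 0.210% ± 0.0853 (SD, n = 4), and the ranges overlapped. Per kb of span these shares were 0.287% ± 0.153 and 0.122% ± 0.0411. The level of Tenm4, the larger part of the family in each culture, enters the denominator of both.

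Of the 4 teneurins, 1 passed the filter on low counts, Tenm4. Over all 10729 genes tested with edgeR's quasi-likelihood test, 30.5% were called at a Benjamini-Hochberg adjusted p under 0.05, with 15.7% higher and 14.8% lower. With total counts as the only scaling 40.7% of the calls were higher, against 51.6% with TMM. Groups did not overlap in 28.2% of the tested genes. Since Tenm4 was chosen for its difference, its own difference is not read against these shares.

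**Figure D1:**
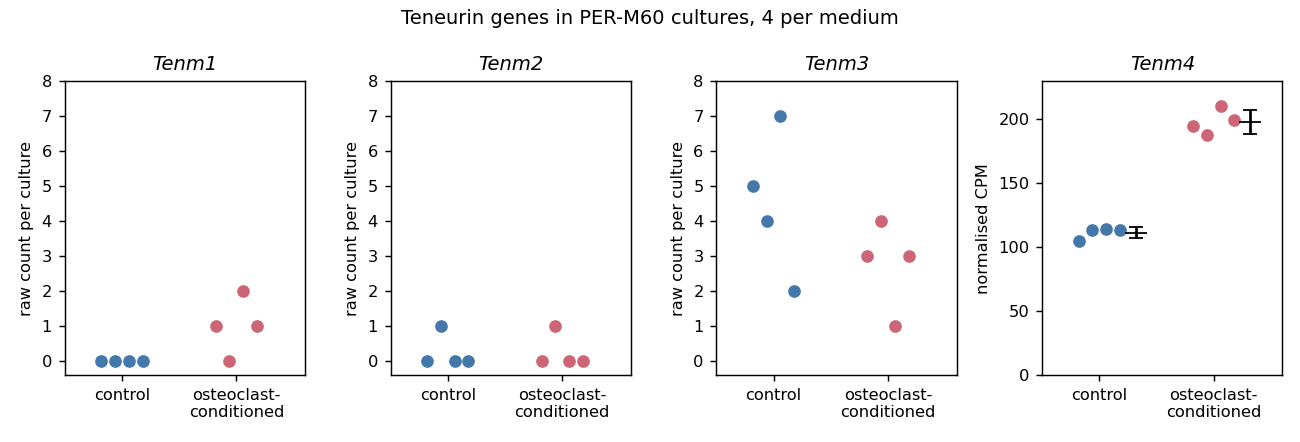
Raw counts of Tenm1, Tenm2 and Tenm3 and normalised CPM of Tenm4 (vertical axes) in each of 4 control and 4 osteoclast-conditioned cultures; each point is a culture, and the bar for Tenm4 is the mean ± SD. Tenm4 runs from 105 to 114 in control and from 188 to 210.1 in osteoclast-conditioned medium, while the other teneurins have between 0 and 7 counts.

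The cells carried the markers of the B lineage, and markers of neurons, the cells in which teneurins are best known, were mostly missing. All 10 B-lineage markers (among them Pax5, Ebf1 and Vpreb1) had a mean of at least 1 CPM. Their summed level was 4742 to 4798 normalised CPM in control and 5090 to 5120 in osteoclast-conditioned medium, so this sum did not overlap between the media either, and its part in the teneurin values was not tested. Of 5 neuronal markers, Snap25 and Rbfox3 had 0 counts in every culture, as did Tubb3, whose span lies wholly inside another listed gene, Gm20388, so that its 0 gives no measure. The summed neuronal level, 25.9 to 29.9 normalised CPM in control and 24.6 to 26.9 in osteoclast-conditioned medium, rested on Map2, with 2 counts of Syt1 in all. Stromal markers summed to at most 0.0647 normalised CPM, with 4 of 5 at 0, and T-cell markers to at most 0.175, with 2 of 5 at 0. The 8 osteoclast markers summed to 21.8 to 25.2 and 23.5 to 26.9 normalised CPM in the respective media. Acp5 was the single osteoclast marker with a mean of 1 CPM or more, and Ocstamp and Dcstamp were at 0. Macrophage markers summed to 6.38 to 7.19 and 7.46 to 9.22 normalised CPM, ranges that did not overlap, with Itgam at 0 (99.9% of its span lies inside Gm49368), and 2 of the 5, Lyz2 and Cd68, reached a mean of 1 CPM. Lyz2, which encodes lysozyme, rose from 4.46 ± 0.406 to 5.91 ± 0.865 normalised CPM (log2 fold change 0.40, edgeR adjusted p = 0.0119), and its part in the teneurin values was not tested. Cd68 had 2.11 ± 0.372 and 2.13 ± 0.175 normalised CPM and did not pass the test (edgeR adjusted p = 0.946). Fewer cells expressing a gene and less of its RNA per cell cannot be told apart in such bulk samples.

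The known binding partners of teneurins outside the cell were represented by the latrophilins Adgrl1 and Adgrl2, which changed in opposite directions. Of 10 partner genes 3 were tested, and 1 was called higher, 1 lower and 1 neither, where 30.5% of all tested genes were called (median log2 fold change 0.14, against -0.01 over all tested genes). With 3 genes tested, nothing is read from the share. Adgrl2, latrophilin 2, had 39.3, 40.5, 42.5 and 41.0 normalised CPM in control replicates 1 to 4 and 56.3, 52.5, 60.7 and 57.4 in osteoclast-conditioned replicates 1 to 4. The groups were clearly separated, and replicate 3 was the highest in both. On the log2 scale Adgrl2 rose by 0.48 (SE 0.045; edgeR adjusted p = 1.75e-09).

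Adgrl1, latrophilin 1, had 96.1, 87.6, 97.8 and 100.2 normalised CPM in the control cultures and 76.4, 78.0, 82.3 and 87.5 in the osteoclast-conditioned cultures. The groups nearly touched, as control replicate 2 (87.555) and osteoclast-conditioned replicate 4 (87.516) had almost the same level. On the log2 scale Adgrl1 fell by 0.23 (SE 0.045; edgeR adjusted p = 0.000347). Per kb of exon the levels of Adgrl1 were 11.1 in control and 9.44 in osteoclast-conditioned medium, and those of Adgrl2 were 2.87 and 4.00 normalised CPM.

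Adgrl3, latrophilin 3, had between 1 and 4 counts per culture and was below the filter. Unc5a, a netrin receptor of the family that also binds FLRT proteins, had 7.30 ± 0.518 and 8.07 ± 0.841 normalised CPM (SD, n = 4 each) in control and osteoclast-conditioned medium. Its groups overlapped, and its log2 fold change of 0.14 (SE 0.096) did not pass the test (edgeR adjusted p = 0.290). Unc5b had 3 to 7 counts per culture, Unc5c had 1 count in all, and Unc5d and Flrt2 had 0. Flrt1 and Flrt3 were also at 0, but 100% of the span of each lies inside another listed gene, Macrod1 and Macrod2. Of the listed genes wholly inside another listed gene, 888 of 889 were at 0, against 30.7% of all IDs. A 0 for Flrt1 and Flrt3 therefore gives no measure of their level.

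**Figure D2:**
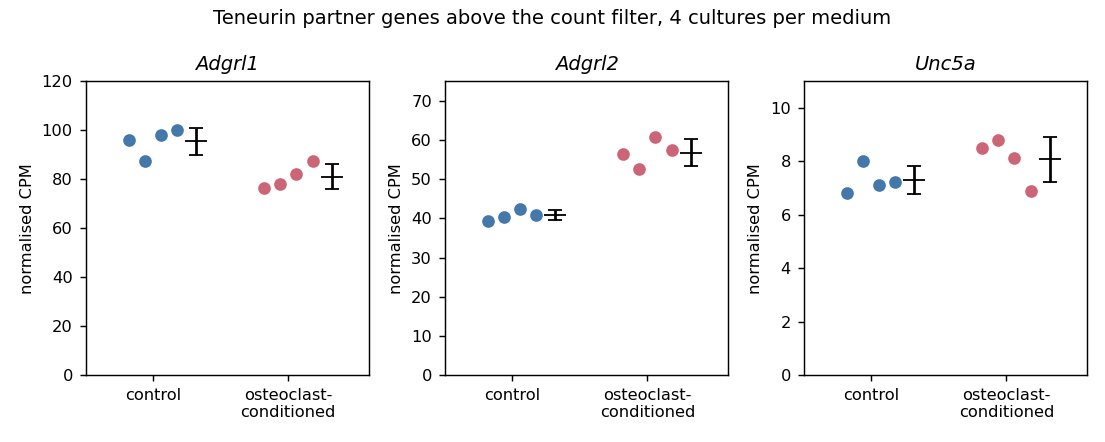
Normalised CPM (vertical axes, from 0) of Adgrl1, Adgrl2 and Unc5a in each culture of the 2 media; points are cultures and bars are the mean ± SD (n = 4). Adgrl2 lies between 52.5 and 60.7 in osteoclast-conditioned medium and at 42.5 or less in control medium, Adgrl1 is lower in osteoclast-conditioned medium with almost touching groups, and Unc5a overlaps.

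Of 8 genes of proteins that bind or act beneath teneurins, 6 were tested, 0 were called higher and 2 lower (median log2 fold change 0.01). That share of 33.3% called was near the 30.5% of all tested genes. Dag1, which encodes dystroglycan, a receptor for the extracellular matrix, fell from 54.5 ± 2.55 to 48.7 ± 2.20 normalised CPM (log2 fold change -0.16, SE 0.044, edgeR adjusted p = 0.00534). Hint1, whose protein binds the intracellular domain of teneurin 1, fell from 103 ± 2.94 to 96.4 ± 2.13 normalised CPM (log2 fold change -0.10, SE 0.033, edgeR adjusted p = 0.0253). The Hint1 call was lost under 9 of 17 alternatives, with an adjusted p of up to 0.222. Ptk2, Pml and Mbd1 did not pass the test. Their log2 fold changes were 0.08 (SE 0.070), 0.04 (SE 0.029) and -0.01 (SE 0.032). Zic1 had 0 counts, with 43.8% of its span inside Zic4. Mitf, a transcription factor linked to the intracellular domain of teneurin 1, had 5, 6, 3 and 5 counts in control and 8, 7, 14 and 15 in osteoclast-conditioned medium. The groups did not overlap, but Mitf was below the filter, and without the filter its log2 fold change was 1.19 (SE 0.42, edgeR adjusted p = 0.0239).

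CHOP and most listed genes of the amino acid response, 10 of 13, were higher in osteoclast-conditioned medium. That this response was higher in these samples was known beforehand, so the list is no independent evidence of its direction. Of 13 genes 12 were tested, 10 were called higher and 1 lower, against 15.7% and 14.8% of all tested genes (median log2 fold change 0.89). Ddit3, which encodes CHOP, rose from 13.2 ± 0.310 to 20.6 ± 0.647 normalised CPM (SD, n = 4 each; log2 fold change 0.64, SE 0.063, edgeR adjusted p = 3.45e-09). Other listed genes cover 54.3% of the Ddit3 span, a second ID with its symbol among them at 0 counts, so its level is uncertain. Atf4, the central factor of the response, rose by 0.23 (SE 0.029), Atf5 by 1.02 (SE 0.049) and Atf3 by 0.88 (SE 0.14) on the log2 scale. Nup62 and Il4i1 cover 13.0% of the Atf5 span.

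Among the listed target genes of these factors, Trib3, a pseudokinase that restrains the response, rose from 15.4 ± 1.38 to 46.3 ± 1.89 normalised CPM. Nupr1, a stress-induced nuclear protein, rose from 9.76 ± 1.32 to 22.2 ± 1.01 normalised CPM. Sesn2, a sensor of leucine, rose by 1.01 (SE 0.057) and Chac1, which degrades glutathione, by 0.89 (SE 0.083) on the log2 scale. Ppp1r15a, the phosphatase subunit that ends the response, rose by 0.33 (SE 0.064), with 21.4% of its span inside Tulp2. Cebpb had the largest log2 fold change, 2.46 (SE 0.30), on 159 counts in all, and 60.4% of its span lies inside Tmem189. Its counts were 5 to 9 in the control cultures and 21 to 43 in the osteoclast-conditioned cultures. Cebpb passed the filter on low counts only through the latter, so nothing is read from its call, which is counted among those higher. Ero1l, an oxidase of the endoplasmic reticulum, fell by 0.17 (SE 0.039, edgeR adjusted p = 0.00105). Tnfrsf10b, a death receptor, did not pass the test (0.14, SE 0.17, edgeR adjusted p = 0.572). Car6, described alongside Tenm4 as a gene downstream of CHOP, had 0 counts in every culture.

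**Figure D3:**
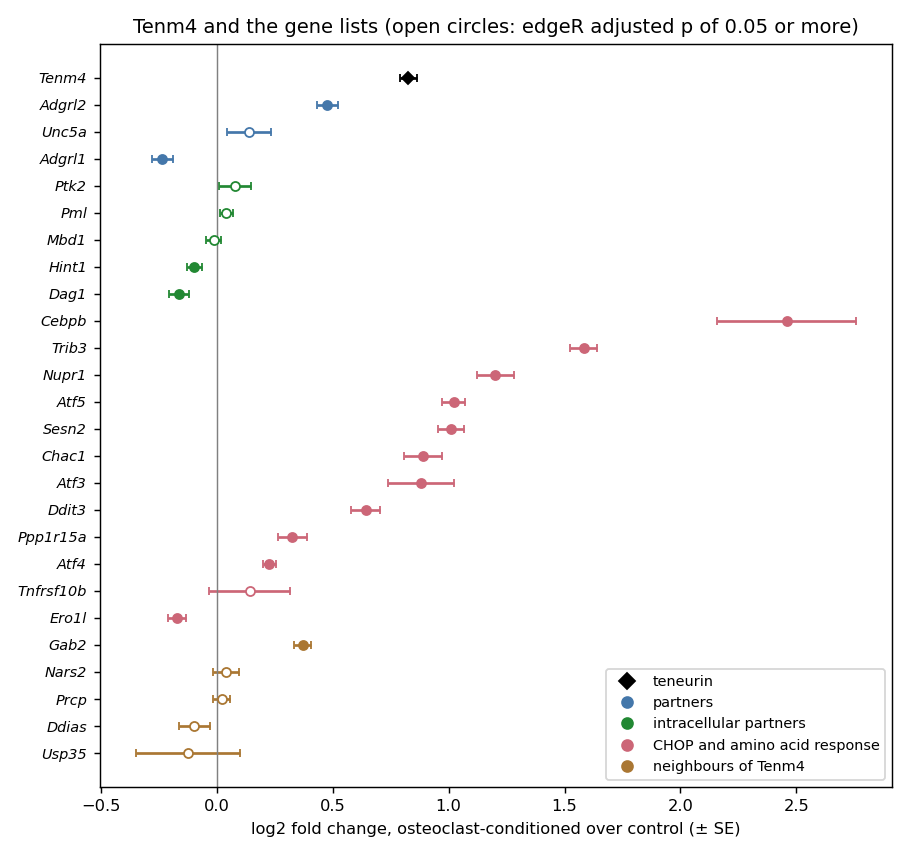
Log2 fold change of osteoclast-conditioned over control medium (horizontal axis, ± SE from the edgeR fit, 4 cultures per medium) for Tenm4 and for the tested genes named in the text of the partner, intracellular partner, CHOP and amino acid response, and neighbour lists. Tenm4, at 0.83, is close in size to Chac1 (0.89) and above Adgrl2 (0.48) and Gab2 (0.37), open circles did not pass an adjusted p of 0.05, and the diamond of Tenm4 stands for no test.

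The genes around Tenm4 were examined because a long gene can share its surroundings with others. On the side of its start the nearest listed gene, Fam181b, lies 3089 kb away and had 0 counts. Beyond it, Prcp, a lysosomal carboxypeptidase, and Ddias had log2 fold changes of 0.02 (SE 0.036) and -0.10 (SE 0.068). On the other side Nars2, the mitochondrial asparaginyl-tRNA synthetase, lies 40.4 kb from the end of Tenm4. It had 21.6 ± 0.264 and 22.2 ± 0.690 normalised CPM in control and osteoclast-conditioned medium, and its difference of 0.04 on the log2 scale (SE 0.056) did not pass the test (edgeR adjusted p = 0.621). Gab2, a scaffold of cytokine and growth factor signalling 170.5 kb from Tenm4, rose from 52.4 ± 1.22 to 67.7 ± 1.76 normalised CPM (log2 fold change 0.37, SE 0.038, edgeR adjusted p = 8.28e-09). Usp35 followed with -0.12 (SE 0.22). Of the 6 neighbours, 5 were tested and 1 was called, higher, where 15.7% of all tested genes were.

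The span of Tenm4 is mostly intron. Exons make up 2.84% of the 739848 bases of Tenm4, and introns the remaining 97.2%. The same share of exons was 1.97% in Tenm1, 0.933% in Tenm2 and 1.66% in Tenm3. Of 549 listed genes that lie wholly inside another listed gene without sharing an exon with it, 548 (99.8%) had 0 counts in every culture. Over all IDs of the table that share was 30.7%, so a position within the introns of another gene went with an absence of counts. The table does not separate exon from intron reads, and their shares in the Tenm4 count are not known. The levels per kb of exon given here may therefore include intron reads, for which the length of exons is not the right measure. The Tenm4 span overlaps 0 other listed genes but 11 annotated genes of other kinds, 9 of them on the opposite strand. The strand setting is not given in the sources used here, so reads from those genes and from Tenm4 cannot be told apart.

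Counts per length of span differed widely among the teneurins. Tenm2 spans 1229 kb and had 1.63 counts per Mb of span over the 8 cultures, Tenm1 had 4.44 and Tenm3 had 47.1. Tenm4 had 30135 counts per Mb. Among the 226 other listed genes with a span of at least 500 kb, 89 had fewer than 10 counts in all.

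Long genes were more often called higher than lower in osteoclast-conditioned medium with TMM scaling, a split that an offset on span turned, as given further on. Of the 226, 78 were tested, and 22 (28.2%) were called higher and 7 (8.97%) lower, against 15.7% and 14.8% of all tested genes. Their median log2 fold change was 0.08. The 7 lower calls became 2 without osteoclast-conditioned replicate 1, 4 without control replicate 1 or 4 or osteoclast-conditioned replicate 2 or 3, and 2 under DESeq2's test, while the higher calls numbered 19 to 24 in these settings. The named rises were those of Slc9a9, an endosomal sodium-proton exchanger (0.58, SE 0.090), Zbtb20, a transcription factor (0.54, SE 0.094), and Nrxn3, the synaptic adhesion protein neurexin 3 (7.30 ± 0.693 to 10.6 ± 1.00 normalised CPM, log2 fold change 0.54). The named falls were those of Camta1 (-0.23, SE 0.081), Hdac9, a histone deacetylase (-0.19, SE 0.044), and St6galnac3, a sialyltransferase (-0.18, SE 0.061). Other listed genes cover 9.22% of the Camta1 span. The calls of Camta1 and St6galnac3 were lost under 7 and 6 of 17 alternatives.

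The relation to span ran through the whole table. Among 2376 tested genes under 10 kb, 9.09% were called higher and 19.1% lower, with a median log2 fold change of -0.04. Among 381 genes from 200 to 500 kb, 35.4% were called higher and 2.89% lower, with a median of 0.08. With an offset fitted on GC content and span, the long genes were called higher in 14 cases and lower in 16, with a median of -0.06, and the Tenm4 log2 fold change was 0.68. An offset on span only, chosen after seeing the data, gave 13 higher and 17 lower and 0.69 for Tenm4, and an offset on GC content only gave 23 and 7 and 0.82. Adgrl2 and Gab2 had log2 fold changes of 0.40 and 0.28 with the offset on span only. The named falls were larger with that offset, at -0.38 for Camta1, -0.34 for Hdac9 and -0.30 for St6galnac3, and the named rises smaller, at 0.45 for Slc9a9, 0.40 for Zbtb20 and 0.37 for Nrxn3. An offset on span is fitted to the values of each culture, the difference between media included, so it removes such a trend by construction. Why the direction went with span was not tested.

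**Figure D4:**
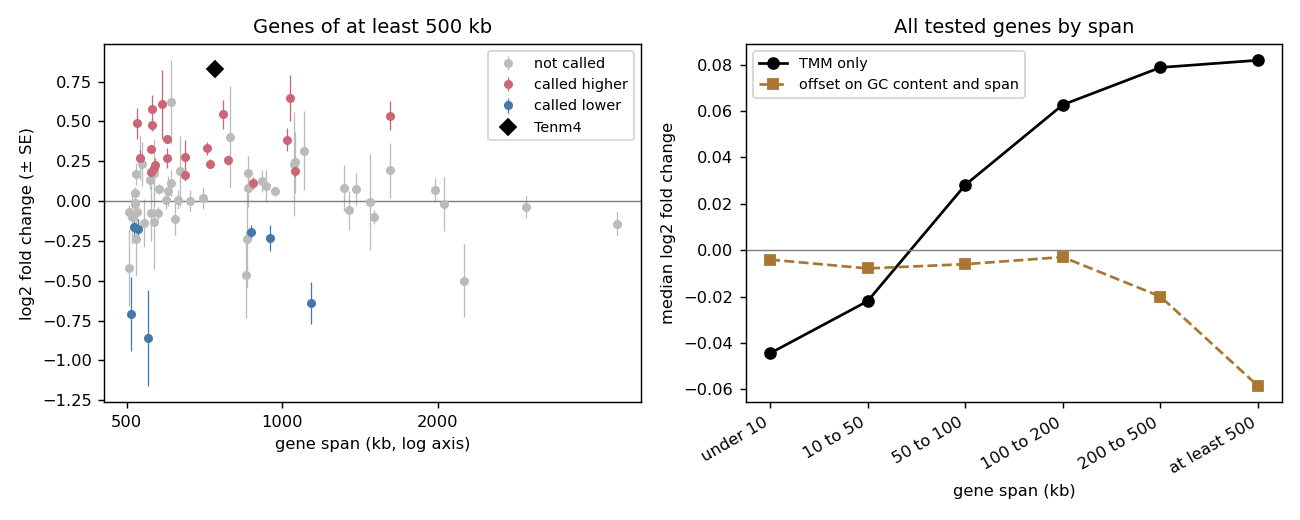
Left, log2 fold change (± SE) against gene span in kb on a log axis for the 78 tested genes of at least 500 kb, with Tenm4 as a diamond. Right, median log2 fold change of all tested genes in 6 bins of span with TMM scaling alone and with an offset on GC content and span; the first rises from -0.04 under 10 kb to 0.08 at 500 kb and more, and the second ends at -0.06.

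The genes whose profile over the 8 cultures was most like that of Tenm4 were ranked by Euclidean distance between log2 CPM values after each gene's mean had been removed, over the 9031 genes whose mean was 5 CPM or more. The nearest were Vldlr (distance 0.204), Gpt2 (0.214), Chac1 (0.216), Grk5 (0.230) and Nt5e (0.262), where the median gene had a distance of 1.198. Vldlr, a lipoprotein receptor, went from 15.4 ± 0.422 to 29.7 ± 1.27 normalised CPM. Gpt2, a mitochondrial alanine transaminase, went from 71.7 ± 4.17 to 125 ± 3.33. Grk5, a kinase of G protein-coupled receptors, went from 5.19 ± 0.280 to 8.60 ± 0.642, with 20.4% of its span inside Zfp950. Nt5e, the surface enzyme CD73 that forms adenosine, went from 20.7 ± 1.18 to 35.4 ± 1.44 (SD, n = 4 each). The distance is set mainly by the step between media and says nothing of shared control.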

How the data were processed

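The authors deposited a table of unnormalized counts, 1 per Ensembl gene ID and sample. The submitters' processing notes name STAR 2.7.5a, featureCounts 2.0.1 and mm10; the annotation, counted feature and strand setting are not given in the sources used here. Columns were matched by the sample number in the header, and groups by title. Of 21859 IDs, 21817 matched GENCODE M21 (GRCm38). Genes passing filterByExpr (10729) were TMM-scaled and tested with edgeR 4.0.16 (glmQLFit, robust; glmQLFTest) in R 4.3.3, adjusted by Benjamini-Hochberg. The standard error is the absolute log2 fold change divided by the square root of F. DESeq2 1.42.0 was an alternative. On simulated counts of this comparison (10664 genes) the edgeR fit called 82% of genes changed 1.2-fold and 98% of those changed 2-fold. Of its 195 calls, 13 were false.

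Members and lists were chosen with earlier results of these data known. Named genes were all members, any list gene or neighbour, the 3 largest called rises and falls among long genes averaging 5 CPM or more, and the 5 profiles most like Tenm4. A gene of the intracellular list and a lineage marker entered the counts and sums of their lists but are not reported here by name.

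Alternatives were DESeq2 size factors, total counts only, no filter, DESeq2's test, the replicate block, offsets by loess (span 0.5) with and without the block, and leaving out each sample.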

Additional observations from a re-analysis of the deposited data

Results flagged for a closer look

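For 37 genes, the gap between the extreme culture of a medium and its nearest neighbour was divided by the range over that medium's cultures. Of 74 groups of 4 cultures, 6 had a ratio above the 95% critical value of 0.829, where chance flags about 1 in 20 groups, or 3.7. Tenm4 was low in control replicate 1, at 105 normalised CPM against 113 to 114 in the other control cultures (ratio 0.905). Without that culture the Tenm4 log2 fold change was 0.80, against 0.83 with it. Nars2 had 21.2 in osteoclast-conditioned replicate 3, below the 22.5 to 22.7 of that medium's other cultures. In control replicate 3, Usp35 was low at 0.842 against 1.30 to 1.36, St6galnac3 was low at 20.5 against 22.9 to 23.1, and Slc9a9 was high at 8.48 against 6.69 to 6.92. Camta1 was low in control replicate 2, at 12.7 against 15.6 to 15.9 normalised CPM. The cause was not tested.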

How the results depend on the processing

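The Tenm4 log2 fold change of 0.83 moved by more than the spread between cultures with the offset on GC content and span (0.68), the same with the replicate block (0.68) and the offset on span only (0.69, chosen after seeing the data); with the replicate block alone it was 0.83, and leave-one-out gave 0.80 to 0.85. With the offset on GC content and span the median of the long genes went from 0.08 to -0.06. The 2 calls among intracellular partners became 1 under DESeq2's test, under the offset on GC content and span with and without the replicate block, and under the offset on span only; leave-one-out gave 1 to 2, with 1 without control replicate 1 or 3 or osteoclast-conditioned replicate 2, 3 or 4. Hint1 was the gene lost, and without a filter on low counts there were 3, with Mitf. The total calls of the other lists stayed within 1.5 times, but the long-gene split of 22 higher and 7 lower did not: it was 20 and 2 under DESeq2's test, 14 and 16 under the GC content and span offset, 15 and 17 with the block added, 13 and 17 on span only, and 19 to 24 higher and 2 to 6 lower in leave-one-out. Leave-one-out gave totals of 2 to 2 partners, 11 to 11 CHOP and amino acid response genes, 1 to 1 neighbours, 23 to 28 long genes and 2635 to 3578 genes in all. Differences near 0 that never passed the test changed sign: Mbd1 (0.0078 with the offset on GC content and span, 0.0067 with the block added, 0.0138 on span only, and -0.0264 to 0.0058 in leave-one-out, the last without control replicate 1), Ptk2 (-0.0149, -0.0145 and -0.0122 under these offsets), Nars2 (-0.0143, -0.0134 and -0.0191) and Prcp (-0.0012, -5e-04 and -0.0031, and -1e-04 with total counts only). Replicate numbers are shared in the labels, but same-numbered samples correlated by 0.0372 on average (from -0.0507 to 0.143), and 1 of 4 control samples correlated best with its own number; the replicate block called 3446 genes. Depth limits Tenm1 to Tenm3, whose share of the family over all 8 cultures was 0.205% per kb of span against 0.354% per kb of exon.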
